A study of Mus musculus with 23 samples.

Results

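The cytosolic ribosomal protein genes encode the proteins of the small (Rps) and large (Rpl) subunit of the ribosome. They were taken by symbol: Rps or Rpl with a number and at most one of the letters a, x or l, the 3 stalk genes Rplp0, Rplp1 and Rplp2, and Rpsa, with a mean of at least 10 counts over the 17 dorsal libraries. This gave 75 genes, 31 of the small and 44 of the large subunit, among 24985 gene symbols in each count table. The pattern matched 82 symbols. The 7 symbols below the mean count were Rpl34 (9.82 counts), Rps27 (8.24 counts), Rpl3l (4.35 counts), Rpl30 (3.47 counts), Rpl39l (1.24 counts), and Rpl26 and Rpl10l, both listed at 0. The nearest genes above it were Rps13 (30.2 counts) and Rpl17 (39 counts). All 75 genes passed the filter on low counts in both tables. The pattern leaves out further ribosomal genes by their spelling, such as Fau and Rps3a1.

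Ribosomal proteins are made in matched amounts for the assembly of the ribosome in the nucleolus. Their mRNAs are short, abundant and present in every cell type. Most start with a run of pyrimidines, the 5' terminal oligopyrimidine (TOP) motif, through which mTORC1 and LARP1 set their translation. In neurons some of these mRNAs are also carried into dendrites and axons, and mTORC1-dependent translation is known to take part in memory formation.

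The libraries came from polyadenylated RNA of mouse hippocampus. Acss2 is an enzyme that turns acetate into acetyl-CoA, the donor for histone acetylation, and the study concerns its role in fear memory. Mice were C57BL6/J, and exons 3 to 7 of Acss2 were deleted in embryos of a single cell, so the deletion is not limited to a cell type or an age. Whole hippocampus, dissected freehand from home cage mice, gave 2 WT, 2 Het (1 deleted copy) and 2 KO libraries, all in batch B0. Dorsal sections, cut with a brain matrix, gave 5 WT and 5 KO libraries from the home cage, and 3 WT and 4 KO libraries taken 30 min after contextual fear conditioning with 1 shock. The fear groups are set here only against mice left in the home cage, and the labels used here do not give the age or sex of the mice. The 3 WT fear libraries were all in batch B1 with WT home cage 1 and 2 and KO fear 1 and 2. Batch B2 held WT libraries 3 to 5 and KO libraries 1 to 3 of the home cage. Batch B3 held KO libraries only, numbers 4 and 5 of the home cage and 3 and 4 of the fear group.

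Whole hippocampus libraries held between 18814460 and 27293661 counts each. Dorsal libraries held between 5362773 and 23412644, and the shallowest were those of B1 (5362773 to 9109104). Acss2 stood at 60.3 to 60.9 CPM (a gene's counts over the TMM-scaled library size, in the units of edgeR's cpm) in whole WT, 31.2 to 34.3 in Het and 6.73 to 7.02 in KO. In the dorsal libraries it ran from 56.2 to 71.3 CPM in WT and from 3.87 to 6.04 CPM in KO, so each library matched its genotype label. Summed markers of hippocampal neurons ran from 9076.76 to 15324.4 CPM in the dorsal libraries. The haemoglobin genes Hba-a1, Hba-a2, Hbb-bs and Hbb-bt were listed at 0 in both tables. Of 13 genes rapidly induced by neuronal activity, 10 were called higher in WT fear than in WT home cage (median log2 fold change 1.51). Over all genes, 0.871% were called higher there. In KO fear against KO home cage edgeR called 0 of the 13 (median 0.42) and 0 of all 14808 genes. All 13 lay above 0 there, with 6 at an unadjusted p under 0.05. DESeq2 called 4 of them higher, and 6 of all genes. Their mean summed level in the home cage was 605 CPM in KO and 388 CPM in WT. Nothing in the labels says that the libraries are separate animals, so p-values measure the spread between these samples.

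The starts of the genes show what the family shares at the sequence level. Promoter windows of RefSeq (GRCm38.p6, 250 bases before to 50 after a start) were found for 55 of the 75 genes, in 65 windows. The longest run of C and T between 25 bases before and 15 after the start was at least 8 bases in 27 of the 65 windows (41.5%), against 16.6% of all 32851 windows. Its median length was 7 bases against 5 in all windows. The ETS-type motif CCGGAAG, searched on both strands as CCGGAAG or CTTCCGG over the whole window, lay in 23 of the 65 windows (35.4%) against 8.86% of all windows. Each line below gives the 60 bases before and 15 bases after a start on the gene's strand, 5′ to 3′, with the longest C and T run in capitals. The first set has a run of at least 8 bases at or near the start. Of its 3 annotated starts, Rpl35a is shown at the one with the longest run. In Rpl13 the run lies wholly before the start (from -16, 10 bases long). Rplp2, Rps6 and Rpl35 also hold the ETS-type motif in the window.
Rplp2, chr7:141447591-141447665, plus strand: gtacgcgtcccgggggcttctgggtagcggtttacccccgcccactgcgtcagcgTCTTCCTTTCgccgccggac
Rps6, chr4:86857353-86857427, minus strand: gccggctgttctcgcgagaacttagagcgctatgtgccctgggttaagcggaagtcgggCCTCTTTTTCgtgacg
Rpl35, chr2:39005117-39005191, minus strand: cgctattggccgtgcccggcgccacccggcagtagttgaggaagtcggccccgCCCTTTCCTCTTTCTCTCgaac
Rpl35a, chr16:33056422-33056496, plus strand: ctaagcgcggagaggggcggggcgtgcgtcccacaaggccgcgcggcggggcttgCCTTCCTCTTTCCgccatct
Rpl13, chr8:123102290-123102364, plus strand: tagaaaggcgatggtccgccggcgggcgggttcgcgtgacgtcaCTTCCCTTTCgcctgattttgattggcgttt
Rpl28, chr7:4792905-4792979, plus strand: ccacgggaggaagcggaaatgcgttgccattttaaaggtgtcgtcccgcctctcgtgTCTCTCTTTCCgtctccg
The second set has shorter runs, and of these genes Rps7 holds the ETS-type motif in the window.
Rps23, chr13:90923062-90923136, plus strand: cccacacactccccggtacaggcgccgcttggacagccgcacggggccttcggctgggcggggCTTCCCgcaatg
Rps7, chr12:28635939-28636013, minus strand: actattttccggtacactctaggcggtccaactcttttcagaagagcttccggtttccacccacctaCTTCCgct
Rpl10, chrX:74270756-74270830, plus strand: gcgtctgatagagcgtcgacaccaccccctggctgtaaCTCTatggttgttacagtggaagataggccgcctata

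Levels differed widely between genes whose proteins enter the ribosome together. Per kilobase of the representative transcript in GENCODE M21 (mm10), the mean dorsal level was highest for the stalk gene Rplp1 (675 CPM per kb), for Rps15 (566 CPM per kb) and for Rpl8 (493 CPM per kb). It was lowest for Rps23 (3.99 CPM per kb), Rps13 (3.66 CPM per kb) and Rpl17 (3.66 CPM per kb). The range from the lowest to the highest gene was 184-fold. The order was nearly the same in whole hippocampus (Spearman's rho 0.986 over the 75 genes).

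These genes have many processed pseudogenes, and the levels moved with how much of a transcript is unique. Of all 50-base words of a representative transcript, a median of 46.3% were found in no other annotated gene. Rpl39 was at 83.5% and Rpl35 at 4.91%, and Rpl7a shared words with 120 pseudogenes. Level per kb and unique share had a Spearman's rho of 0.445 over the 75 genes, which share all their libraries. Both measures rest on 1 representative transcript per gene. That of Rps15a has 5130 bases and that of Rps20 3706 bases, against a median of 775 bases. Rps15a thus stood at 19.9 CPM per kb with 93.9% unique words, and Rps20 at 16.1 CPM per kb with 92.4%. The median level was 69.2 CPM per kb in the 33 genes with at least 50% unique words and 30.5 CPM per kb in the 42 genes below that. The genes just outside the rule did not share 1 level of uniqueness: Rps27 had 1.35% unique words, Rpl34 had 49.4%, and Rpl3l and Rpl39l had 100%. The sources used here do not say how reads with more than 1 match were counted, so no amount of mRNA is read from a low level, and the part of shared sequence in the order of genes was not tested. In addition, 36 of the 75 genes share exon bases with another annotated gene, such as Rps18 with Vps52 and Rpl28 with Ube2s, and without strand their shared reads belong to either gene.

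**Figure D1:**
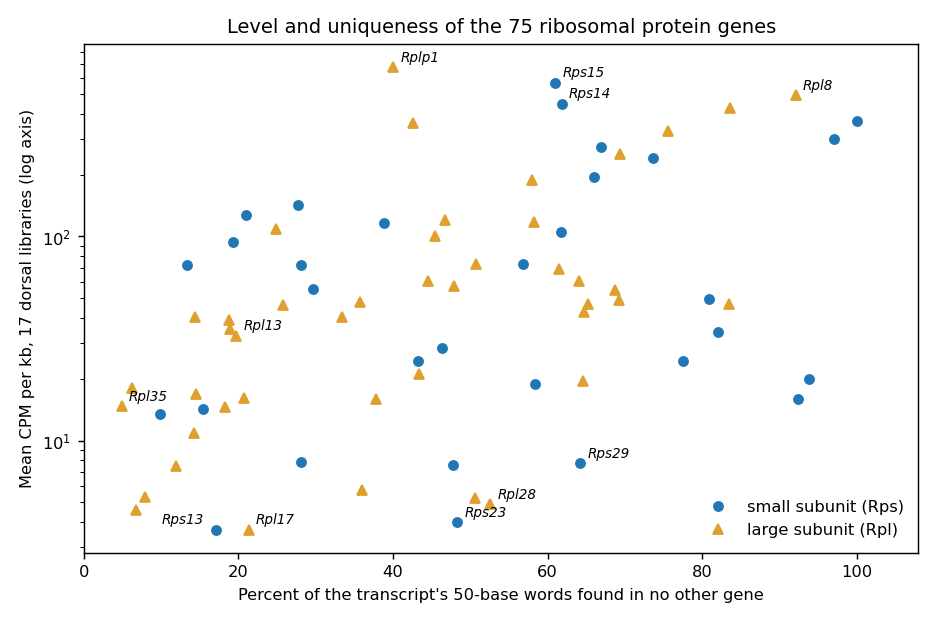
Mean level per kilobase over the 17 dorsal libraries (CPM per kb, log axis) against the percent of 50-base words of the transcript found in no other gene, for 31 small-subunit (circles) and 44 large-subunit genes (triangles). Rplp1 is highest at 675 CPM per kb, and Rps13 and Rpl17 are lowest at 3.66 CPM per kb.

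The clearest difference lay between KO and WT after fear conditioning. Of the 75 genes, 54 were higher in KO fear (n = 4) than in WT fear (n = 3) by edgeR's quasi-likelihood test, and 0 were lower. Over all genes tested, 10.2% were called higher in this comparison and 12.1% lower. The median log2 fold change was 0.82 (1.77-fold), against 0.01 over all genes, and 74 of the 75 genes lay above 0. The called genes ran from 1.49-fold to 3.31-fold, with adjusted p from 0.0155 to 0.0474, and 24 of them were at least 2-fold higher. DESeq2 called 57, with 11.5% of all genes called higher. Both subunits took part, with 22 of 31 small-subunit genes (median 0.92) and 32 of 44 large-subunit genes (median 0.78).

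The summed level of the 75 genes shows which libraries made the difference. In WT fear it was 6087.5, 4115.19 and 4347.03 CPM, and in KO fear 8131.44, 10363.5, 7487.38 and 5345.18 CPM. The group means were 4849.91 ± 1078.04 CPM (SD, n = 3) in WT fear and 7831.88 ± 2065.69 CPM (SD, n = 4) in KO fear. In the home cage the sums were 5520.31, 6572.12, 4995.78, 5583.27 and 6376.04 CPM for WT. For KO they were 8711.71, 7231.13, 5044.11, 6803.19 and 5884.54 CPM. WT fear 2 and 3 were thus below every other dorsal library, KO fear 2 was the highest of all, and KO fear 4 lay below WT fear 1. WT fear 2 was the lowest dorsal library for 46 of the 75 genes and WT fear 3 for 16. KO fear 2 was the highest for 41 genes and KO home cage 1 for 25. Only 22 of the 75 genes had KO fear libraries that all lay above all WT fear libraries, against 10.7% of all genes tested, and 18 of these were among the 54 called.

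**Figure D2:**
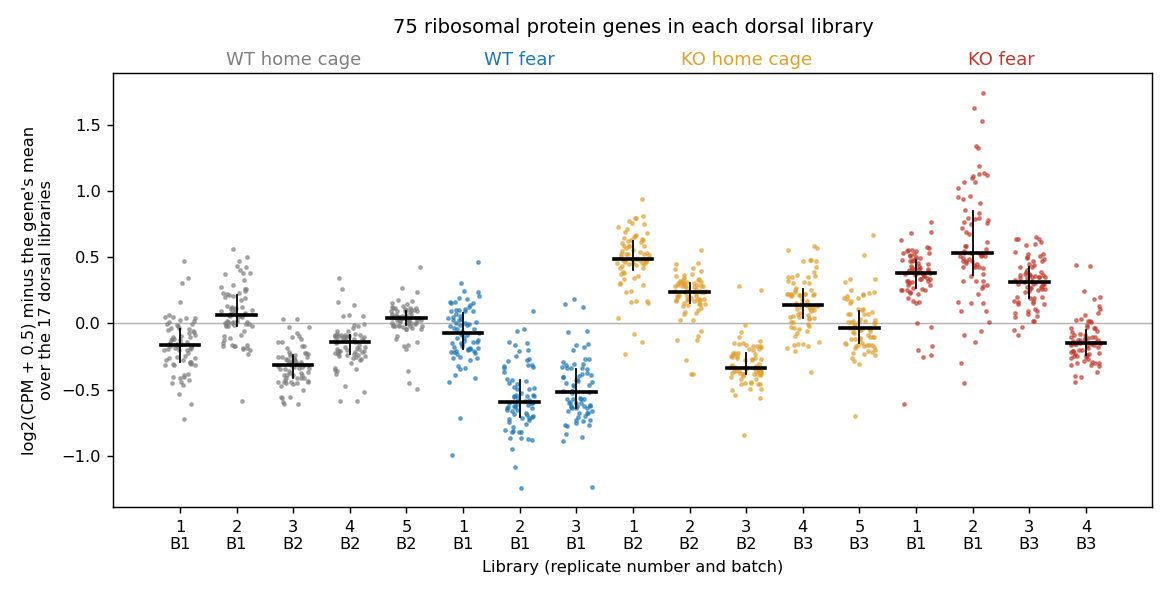
Each point is 1 of the 75 genes in 1 dorsal library, as log2(CPM + 0.5) minus the gene's mean over the 17 libraries; bars are the median and the interquartile range, and labels give replicate number and batch. The medians of WT fear 2 and 3 are lowest (-0.60 and -0.51) and that of KO fear 2 is highest (0.53).

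Among the small-subunit genes the largest difference was in Rps29 (ENSMUSG00000034892.8, chromosome 12, 69157722 to 69159186, minus strand), a small zinc-binding protein in the head of the subunit. It held 1.13, 0.877 and 0.884 CPM in WT fear, from only 6, 8 and 7 counts, and 2.32, 4.22, 4.09 and 2.89 CPM in KO fear. Every KO fear library lay above every WT fear library. The log2 fold change was 1.73 ± 0.36 (3.31-fold, edgeR adjusted p = 0.0155). Rps23, which sits in the decoding centre, held 3.2, 1.43 and 1.89 CPM in WT fear and 5.33, 5.06, 4.62 and 3.81 CPM in KO fear, also without overlap (1.35 ± 0.31, adjusted p = 0.0162). Its WT fear values rest on 17, 13 and 15 counts.

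Rps6, the protein phosphorylated by S6 kinase in active neurons, changed less. It held 12.4, 10.6 and 9.72 CPM in WT fear and 15.7, 17.3, 13.8 and 10.7 CPM in KO fear, with overlap between the groups. Its log2 fold change was 0.58 ± 0.20, and its adjusted p of 0.0474 was the highest of the called genes. The laminin receptor gene Rpsa was at 42.7, 23.8 and 29.3 CPM in WT fear and at 57.9, 59.3, 61.7 and 39.5 CPM in KO fear (0.88 ± 0.24, adjusted p = 0.0206). In both genes KO fear 4 lay below WT fear 1, and in Rpsa it also stood apart from the other KO fear libraries. Rps7, which had the smallest p of the 75 genes, held 41.6, 28.8 and 34.7 CPM in WT fear and 65.3, 80.1, 50.5 and 38.2 CPM in KO fear (1.01 ± 0.19, adjusted p = 0.0155), with KO fear 4 again below WT fear 1. Rps19, the first gene found mutated in Diamond-Blackfan anaemia, was also called (0.92 ± 0.23, adjusted p = 0.0180), as was the X-linked Rps4x (0.83 ± 0.22, adjusted p = 0.0212).

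Of the large-subunit genes Rpl13 (ENSMUSG00000000740.12, chromosome 8, 123102350 to 123105244, plus strand) stood out. It held 19.8, 14.7 and 12.4 CPM in WT fear and 33.1, 77.8, 32.6 and 19.7 CPM in KO fear, so KO fear 2 was the highest of all dorsal libraries and KO fear 4 lay just under WT fear 1. The log2 fold change was 1.67 ± 0.34 (3.19-fold, adjusted p = 0.0155), and without KO fear 2 it was 1.01 and not called (adjusted p = 0.110). Rpl39, a very short protein that lines the exit tunnel, held 23.5, 13.2 and 14.9 CPM in WT fear and 29.5, 80.7, 40.5 and 25.4 CPM in KO fear, without overlap (1.64 ± 0.37, adjusted p = 0.0155). Rpl21 (1.39 ± 0.32, adjusted p = 0.0162) and Rpl35a (1.40 ± 0.30, adjusted p = 0.0155) also had KO fear 2 as their highest library, at 147 and 115 CPM, and KO fear 4 below WT fear 1.

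The stalk genes, whose products recruit the GTPase factors of translation, were all called. Rplp0 was at 149, 95.4 and 101 CPM in WT fear and at 210, 210, 175 and 141 CPM in KO fear (0.84 ± 0.18, adjusted p = 0.0155), with KO fear 4 below WT fear 1. Rplp1 held 265, 176 and 197 CPM in WT fear against 405, 438, 500 and 288 CPM in KO fear, without overlap (0.98 ± 0.24, adjusted p = 0.0178). Rplp2 held 33.5, 27.2 and 26.8 CPM against 39.8, 63, 68.3 and 45.2 CPM, also without overlap (0.75 ± 0.24, adjusted p = 0.0345). KO fear 3, not KO fear 2, was the highest KO fear library of Rplp1 and Rplp2. Rpl8 (0.77 ± 0.19, adjusted p = 0.0185), Rpl3 of the peptidyl transferase centre (0.72 ± 0.21, adjusted p = 0.0284) and Rpl13a, a reference gene of many PCR assays (1.02 ± 0.24, adjusted p = 0.0165), were called as well. So was Rpl35, the gene with the longest C and T run shown above, at 11.3, 9.21 and 9.72 CPM in WT fear and 13.7, 19.8, 18.4 and 12.2 CPM in KO fear without overlap (0.72 ± 0.22, adjusted p = 0.0319).

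Rpl5 and Rpl11 form the particle with 5S rRNA that binds Mdm2 when ribosome assembly fails. Rpl11 was called (0.75 ± 0.22, adjusted p = 0.0271), with 11.3, 9.32 and 8.33 CPM in WT fear and 16.4, 17.5, 16.8 and 12.6 CPM in KO fear and no overlap. Rpl5 was not called, at 43.1, 30.1 and 29.7 CPM against 43.7, 44.3, 41 and 32.7 CPM (0.38 ± 0.18, adjusted p = 0.132). Whether the 2 genes differed from each other was not tested.

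The 21 genes that did not pass had adjusted p from 0.0521 to 0.744, and 13 of them had an unadjusted p under 0.05. Rpl28 was the only gene below 0 (-0.20 ± 0.25, adjusted p = 0.578), at 3.01, 4.71 and 5.81 CPM in WT fear and 3.28, 3.73, 6.45 and 7.31 CPM in KO fear. Its plain group means point the other way, at 5.19 CPM in KO fear and 4.51 CPM in WT fear, while the fit has a batch term: the B1 libraries of KO fear, 1 and 2, were low and those of B3 high. Rpl10, the X-linked gene of the peptidyl transferase region, stood at 5.27, 3.73 and 4.8 CPM against 5.19, 4.7, 4.09 and 5.02 CPM (0.12 ± 0.22, adjusted p = 0.728). Rps4l, an autosomal copy of Rps4x, held 20.3, 21.3 and 23 CPM against 21.9, 27.7, 33.5 and 22.7 CPM (0.12 ± 0.25, adjusted p = 0.744). Rps27l, a p53-induced copy of Rps27, missed the threshold narrowly (0.74 ± 0.26, adjusted p = 0.0528), and so did Rpl22 (0.43 ± 0.16, adjusted p = 0.0639). The ubiquitin fusion gene Rps27a was further off (0.60 ± 0.32, adjusted p = 0.182), and the X-linked Rpl36a passed (0.73 ± 0.24, adjusted p = 0.0414).

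**Figure D3:**
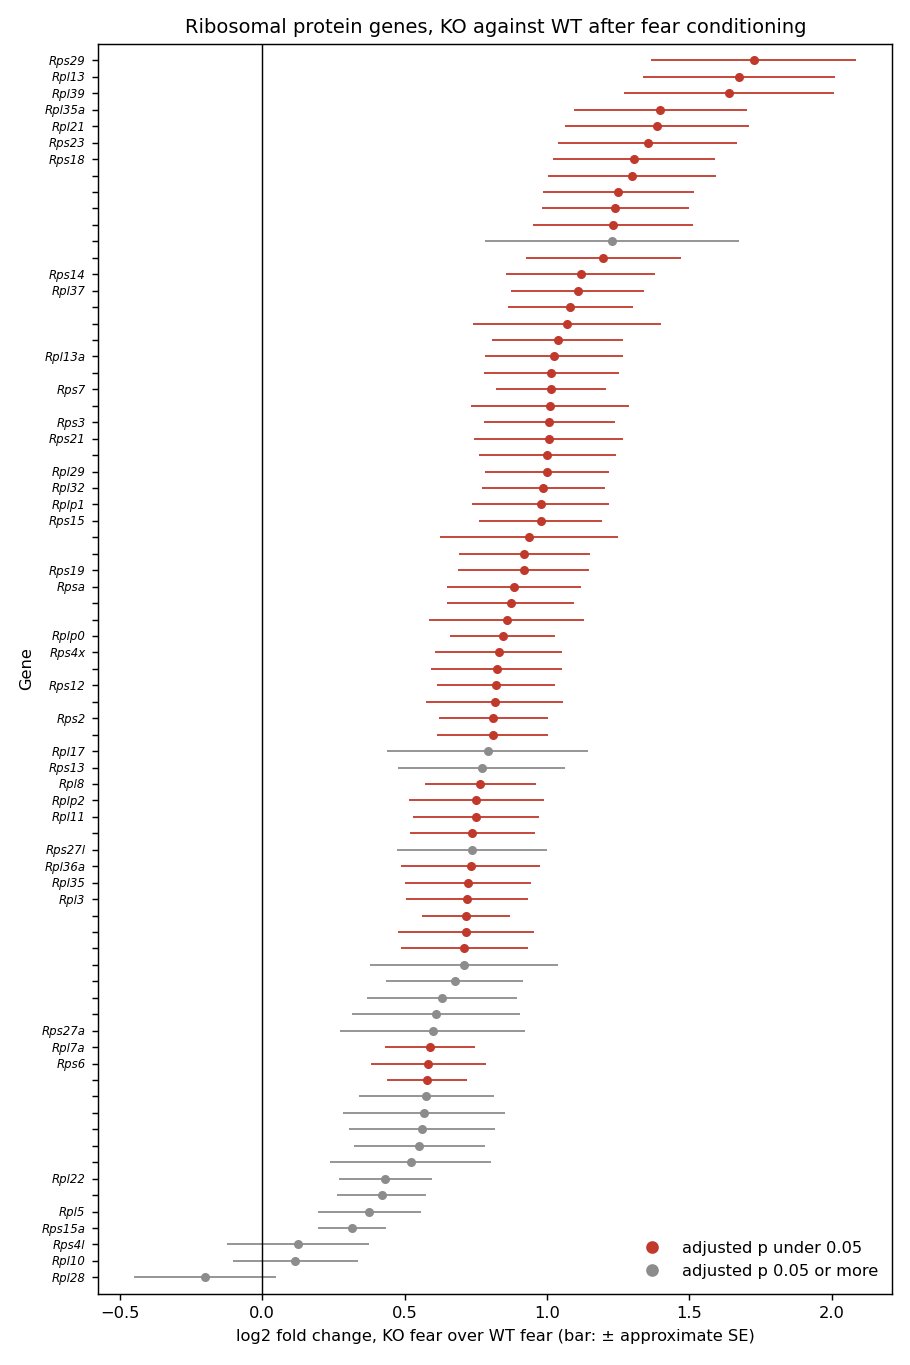
Log2 fold change of KO fear over WT fear for each of the 75 genes, with ± 1 approximate standard error. Red points passed an adjusted p of 0.05 in edgeR and grey points did not. The genes described in the text, apart from Rps20, are named. The 54 called genes run from 0.58 to 1.73, and Rpl28 at -0.20 is the only gene below 0.

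The genes were also counted by the letters at their start and by their share of unique sequence. Of 27 genes with a C and T run of at least 8 bases near a start, 19 were called (median log2 fold change 0.75). Of the 28 matched genes with shorter runs, 20 were called (median 0.83). Runs were sought from 25 bases before to 15 after a start, so some lie wholly before it. Rpl13 and Rpl28, both with long runs in the windows printed above, were near opposite ends of the order of fold changes. Among genes with at least 50% unique words 27 of 33 were called (median 0.92), and among the others 27 of 42 (median 0.78). These are counts over genes and were not tested against each other.

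The count of called genes rested on single libraries. Without WT fear 2, without WT fear 3 or without KO fear 2, edgeR called 0 of the 75 genes, although 59, 60 and 57 of them had an unadjusted p under 0.05 and the median log2 fold change stayed at 0.74, 0.75 and 0.77. The calls over all genes fell with them, from 3298 to 2, 1 and 1. With any other library left out, 44 to 62 genes were called. None of the 54 genes passed in each of the 17 fits that left out 1 library, and Rps6 passed in 6. Within batch B1, which held the 3 WT fear libraries, KO fear 1 and 2 and both WT home cage libraries of that batch, 55 genes were called higher with a median of 0.85, and 2444 of 13900 genes were called in all. No other batch held WT fear libraries.

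**Figure D4:**
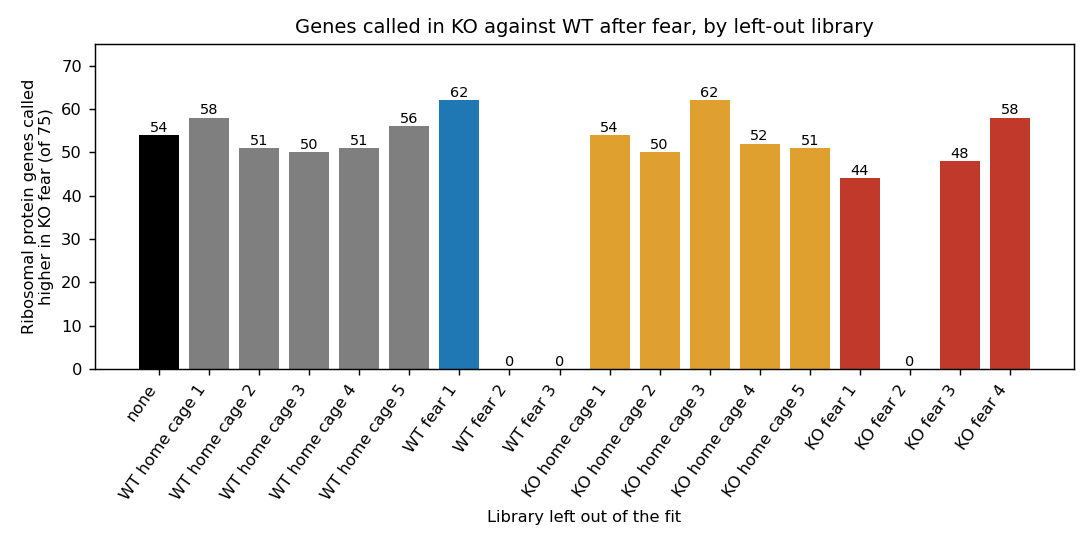
Number of the 75 genes called higher in KO fear than in WT fear by edgeR with all 17 libraries (black) and with each library left out in turn. The count is 54 with all libraries, 0 without WT fear 2, WT fear 3 or KO fear 2, and 44 to 62 without any other.

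Transcript length moved with the same difference. Ribosomal protein transcripts are short, with a median of 775 bases. Among all other genes tested, those with transcripts under 500 bases had a median log2 fold change of 0.61 in KO against WT after fear, and those from 500 to under 1000 bases 0.56, with 34.8% called higher. The median was 0.27 from 1000 bases, 0.004 from 2000 bases, -0.22 from 4000 bases, each up to the next bound, and -0.39 at 8000 or more bases, where 35.8% were called lower. The ribosomal protein genes had medians above those of the other genes of their length, with no test of that difference. These were 0.94 under 500 bases (9 of 13 called), 0.81 from 500 to under 1000 bases (29 of 43 called) and 0.82 from 1000 to under 2000 bases (15 of 16 called).

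The other short genes also differed by library. Over 1094 genes with transcripts under 1000 bases, the median centred log2 level was -0.13, -0.38 and -0.42 in WT fear 1 to 3 and 0.12, 0.34, 0.21 and -0.06 in KO fear 1 to 4. KO home cage 1, at 0.41, was the highest. With a correction of each library for the trend with transcript length among the other genes, 36 of the 75 genes were called higher, against 6.25% of all genes, and the median log2 fold change was 0.40. The 6 genes with the largest differences kept their calls under this correction, with Rpl13 at 1.15 ± 0.25 (edgeR adjusted p = 0.0171), Rps29 at 1.07 ± 0.28 (adjusted p = 0.0246), Rpl39 at 1.06 ± 0.26 (adjusted p = 0.0197), Rpl21 at 0.92 ± 0.24 (adjusted p = 0.0226), Rps23 at 0.92 ± 0.26 (adjusted p = 0.0292) and Rpl35a at 0.78 ± 0.19 (adjusted p = 0.0197). Rps6 was at 0.12 ± 0.14 (adjusted p = 0.589) and was not called. The 6 genes were picked by their differences in these same libraries, so their calls add no separate support. With the replicate number added as a block to this correction, edgeR called 0 of the 75 genes and 3 of all genes. RNA integrity and the fragment sizes of the libraries were not analysed here, and their part in the result was not tested.

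**Figure D5:**
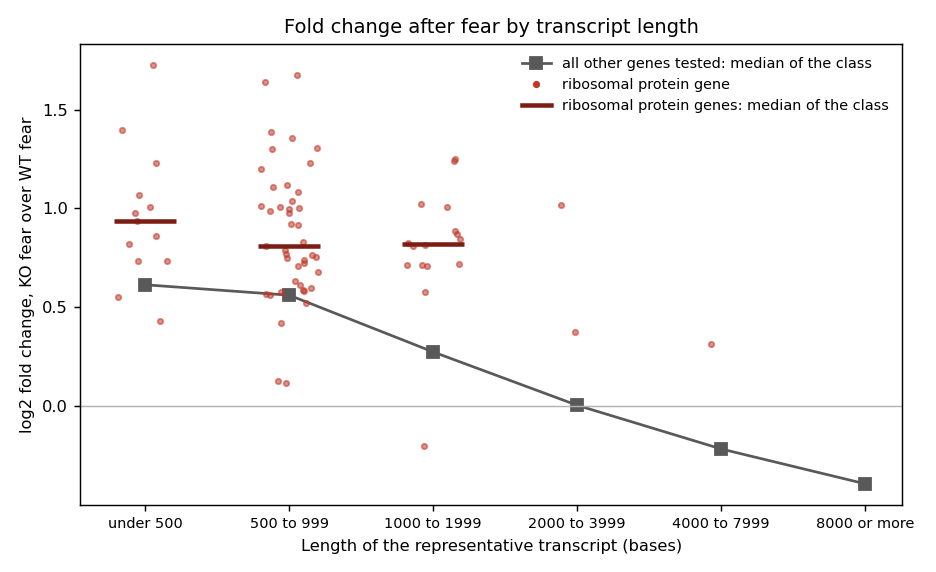
Log2 fold change of KO fear over WT fear by length class of the representative transcript: squares are medians of all other genes tested, points are the ribosomal protein genes, and bars their medians in the 3 classes with more than 2 of them. The other genes fall from 0.61 under 500 bases to -0.39 at 8000 or more bases, and the ribosomal protein medians are 0.94, 0.81 and 0.82.

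Other lists of the translation machinery moved to differing extents in this comparison. Over all genes tested, 10.2% were called higher and 12.1% lower, and the part of transcript length in the list counts was not tested. Genes outside the pattern that carry the TOP motif, among them elongation factor and eIF3 subunit genes, were called higher in 14 of 23 cases and lower in 0 (median 0.57), with Eif3k at 0.91 ± 0.18 (adjusted p = 0.0155) and the ribosomal scaffold gene Rack1 at 0.76 ± 0.16 (adjusted p = 0.0155). Listed genes named after ribosomal proteins that the pattern missed were called in 2 of the 4 tested, Rpl22l1 (1.05 ± 0.27, adjusted p = 0.0192) and Rpl36al (0.96 ± 0.24, adjusted p = 0.0186). Not all of the 4 are copies of a ribosomal protein gene, since Rps19bp1 is among them. Ribosome biogenesis genes, which act in the nucleolus, had 4 higher and 3 lower of 40 (median 0.15), among them the RNA polymerase subunit gene Polr1c (0.67 ± 0.14, adjusted p = 0.0155) and Npm1 (0.73 ± 0.17, adjusted p = 0.0165). Npm1 is also on the list of TOP genes, so its call counts in both lists. Genes of mTORC1 and S6 kinase control had 1 higher and 2 lower of 17 (median -0.11), with the kinase gene Mtor at -0.65 ± 0.18 (adjusted p = 0.0222) and its partner Rptor at -0.70 ± 0.16 (adjusted p = 0.0160). Initiation and elongation factors had 3 higher and 3 lower of 25 (median 0.09), with Eif3i at 0.75 ± 0.17 and Eef1a2 at -0.52 ± 0.11 (adjusted p = 0.0155 for both).

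Nuclear genes for mitochondrial proteins, many of them also short, were called higher more often than all genes tested (10.2%). Of 62 nuclear genes of oxidative phosphorylation 51 were called higher and 0 lower (median 0.71), for example Ndufa7 at 1.06 ± 0.20 (adjusted p = 0.0155). Of 78 mitochondrial ribosomal protein genes, 31 were called higher (median 0.43), for example Mrpl52 at 1.26 ± 0.28 (adjusted p = 0.0155).

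Markers of other cell types and of neighbouring tissue moved with the 2 groups too (all genes: 10.2% called higher, 12.1% lower). The 10 oligodendrocyte markers summed to 4031.22 to 5397.66 CPM in WT fear and to 6827.38 to 10719.9 CPM in KO fear, and 8 of 10 were called higher. The 6 ependymal markers summed to 7.83 to 9.41 CPM in WT fear and to 27.9 to 74.7 CPM in KO fear, and all 6 were called, with Ccdc153 at 4.26 ± 0.83 (adjusted p = 0.0155). The 6 choroid plexus markers summed to 48 to 143 CPM in WT fear and 99.9 to 514 CPM in KO fear, with 4 called higher. CA1 markers summed to 657 to 1097.17 CPM in WT fear and 408 to 937 CPM in KO fear, with 4 of 6 called lower and 1 higher. CA2 and CA3 markers summed to 418 to 601 CPM in WT fear and 624 to 746 CPM in KO fear. Microglia markers had 530 to 623 CPM against 628 to 796 CPM, and endothelium 48.2 to 51.2 CPM against 60.5 to 146 CPM. Neocortex markers were lower in KO fear, at 82.5 to 109 CPM against 128 to 180 CPM in WT fear. Sums for thalamus, dentate gyrus, astrocytes, neurons, blood, and pericytes and smooth muscle overlapped. The part of tissue makeup in the ribosomal protein result was not tested, and in bulk tissue fewer cells of a type and less RNA per cell cannot be told apart.

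EdgeR called no gene of the family in the response to fear within a genotype. In WT fear against WT home cage (n = 3 and 5) all 75 genes lay below 0, with a median log2 fold change of -0.40 against -0.02 over all genes. With the correction for transcript length the median was -0.17 and 15 genes lay above 0. EdgeR called 0 of them, against 1.63% of all genes (0.871% higher), with 12 at an unadjusted p under 0.05. DESeq2 called 1 of them and 938 of all 14808 genes. That gene was Rps29, which held 2.13, 2.38, 2.83, 3.63 and 3.17 CPM in the home cage and 1.13, 0.877 and 0.884 CPM after fear, without overlap (-1.33 ± 0.37, edgeR adjusted p = 0.0687, DESeq2 adjusted p = 0.0444). It was the only gene of the 75 whose groups did not overlap here, against 8.45% of all genes lower and 7.7% higher without overlap. Rpl32 (-0.62 ± 0.21, edgeR adjusted p = 0.124) and Rplp0 (-0.50 ± 0.19, adjusted p = 0.141) had the next smallest p. The short genes outside the family were lower too, with medians of -0.30 under 500 bases and -0.28 from 500 to under 1000 bases. Cell type markers moved between the same groups: 8 of 10 oligodendrocyte markers (median -1.23) and 4 of 6 ependymal markers (median -3.93) were called lower in WT fear, and 4 of 6 CA1 markers were called higher (median 1.05). Their part in the lower ribosomal protein levels was not tested. This comparison uses the same WT fear libraries as that of KO and WT after fear.

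In KO fear against KO home cage (n = 4 and 5) the median was 0.11, with 62 of 75 genes above 0. It ran from 0.005 without KO fear 3 to 0.23 without KO fear 4, and within batch B3 it was 0.03 with 47 genes above 0. EdgeR and DESeq2 called 0 genes of the family and edgeR 0% of all genes, with 1 of the 75 at an unadjusted p under 0.05. That gene was Rps12 (0.37 ± 0.17, edgeR adjusted p = 0.968), at 8.59, 7.64, 5.15, 4.96 and 6.56 CPM in the home cage and 9.7, 10.7, 7.42 and 6.5 CPM after fear. Rps15a (0.19 ± 0.11) and Rpl35a (0.42 ± 0.27) followed with adjusted p = 0.968 in edgeR. All 75 genes overlapped between these groups, against 2.33% of all genes higher and 1.97% lower without overlap.

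The difference of the 2 fear responses, KO minus WT, had a median of 0.47 over the 75 genes against 0.03 over all genes, with 73 of 75 above 0. With the correction for transcript length it was 0.25, with 64 above 0. EdgeR and DESeq2 called 0 of the 75, against 0.479% of all genes in edgeR, with 27 at an unadjusted p under 0.05. Rps29 (1.25 ± 0.39, adjusted p = 0.0988), Rps7 (0.66 ± 0.22, adjusted p = 0.120) and Rps23 (0.99 ± 0.35, adjusted p = 0.127) had the smallest p. A fear response that differs by genotype was thus not shown by edgeR for any gene of the family, and it uses the same libraries as the 2 comparisons before it.

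In the home cage, KO against WT dorsal tissue (n = 5 each) had a median of 0.37 against -0.02 over all genes, with 73 of 75 genes above 0. With 1 library left out this median ran from 0.23, without KO home cage 1, to 0.53. EdgeR and DESeq2 called 0, against 0.00675% of all genes in edgeR, with 32 at an unadjusted p under 0.05, and all 75 genes overlapped, against 1.71% of all genes higher and 1.38% lower without overlap. Rpl29, which held 21, 24.5, 22.2, 25.7 and 25.7 CPM in WT and 39.8, 33.5, 25.6, 38.5 and 31 CPM in KO, had the smallest p (0.56 ± 0.17, adjusted p = 0.440). Only KO home cage 3 fell within the WT range, and leaving this library out raised the count of called genes in the family from 0 to 20 and that over all genes from 1 to 585. Rpl13 (0.78 ± 0.26) and Rpl37 (0.54 ± 0.18) came next with adjusted p = 0.440. Within batch B2, which held 3 libraries of each genotype, the median was 0.32 with 0 called by edgeR and 1 gene at an unadjusted p under 0.05. With the correction for transcript length the median was 0.17 over all 10 libraries. All 62 nuclear genes of oxidative phosphorylation lay above 0 here too (median 0.40), as did 77 of 78 mitochondrial ribosomal protein genes (median 0.22). Other genes with short transcripts had medians of 0.21 under 500 bases and 0.25 from 500 to under 1000 bases. All 6 CA1 markers lay above 0 (median 0.45), and 7 of 8 CA2 and CA3 markers below 0 (median -0.19). The part of tissue makeup was not tested.

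Whole hippocampus varied far less between libraries. The summed level of the 75 genes was 3679.88 and 3694.5 CPM in WT. The Het libraries had 4102.23 and 3889.36 CPM, while those of KO had 3647.25 and 3609.69 CPM. Both Het libraries were thus above the other 4. The choroid plexus markers, which ran from 32.5 to 4010.1 CPM in these libraries, were high in WT 2, Het 2 and KO 1 and did not follow that order. Other markers did. Both Het libraries were above the other 4 for the summed markers of neocortex (190 and 319 CPM against 150 to 157 CPM), microglia (469 and 483 CPM against 422 to 441 CPM) and endothelium (235 and 267 CPM against 215 to 234 CPM). Pericytes and smooth muscle followed as well (280 and 310 CPM against 221 to 267 CPM). Both Het libraries were lowest for dentate gyrus markers (177 and 314 CPM against 333 to 376 CPM). They were also lowest for CA2 and CA3 (495 and 647 CPM against 689 to 782 CPM) and for blood. So it was for ependyma (30.1 and 31.8 CPM against 34 to 50.4 CPM) and astrocytes (1452.12 and 1530.23 CPM against 1597.71 to 1752.13 CPM). The part of these markers in the higher Het levels was not tested.

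In KO against WT whole hippocampus the median log2 fold change was -0.03 against 0.005 over all genes, with 32 of 75 genes above 0. Markers of other cells moved with genotype. All 10 oligodendrocyte markers had higher values in KO (median 0.29), with 0 called by edgeR, 10 at an unadjusted p under 0.05 and 4 called by DESeq2. The blood markers Alas2 and Slc4a1 summed to 33 and 60.3 CPM in the WT libraries, against 5.64 and 3.78 CPM for KO and 2.56 and 2.49 CPM for Het. Their part in the ribosomal protein values was not tested. EdgeR and DESeq2 called 0, against 0.0388% of all genes in edgeR (0.0259% higher, 0.0129% lower), with 7 of the 75 at an unadjusted p under 0.05. Rps14, a protein of the platform of the small subunit, held 128 and 137 CPM in WT and 158 and 156 CPM in KO, and the Het libraries were highest at 179 and 178 CPM (KO against WT 0.24 ± 0.054, adjusted p = 0.774). Rplp1 held 177 and 170 CPM in WT and 145 and 141 CPM in KO (-0.28 ± 0.073, adjusted p = 0.774), and Rps2 held 74.1 and 73.1 CPM in WT and 82.9 and 80.8 CPM in KO (0.15 ± 0.048, adjusted p = 0.774). Rps14 and Rps2 were thus higher and Rplp1 lower in both KO libraries, and none passed. Groups of 2 that do not overlap were common here: 11 genes of the family were higher and 23 lower without overlap, against 20.2% and 21.9% of all genes.

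Het libraries gave the higher values of the 3 genotypes. In Het against WT the median was 0.11 against 0.001 over all genes, with 61 of 75 genes above 0 and 37 higher without overlap, against 23.7% of all genes. EdgeR called 0 of the 75 and 0% of all genes, with 13 of the 75 at an unadjusted p under 0.05. DESeq2 called 2 higher, Rps14 (edgeR log2 fold change 0.43 ± 0.054, edgeR adjusted p = 0.122) and Rps3 (edgeR 0.22 ± 0.053, adjusted p = 0.255), among 142 of all 15453 genes, 91 of them higher. In KO against Het the median was -0.12, with 8 of 75 genes above 0 and 48 lower without overlap, against 23% of all genes. EdgeR and DESeq2 called 0, against 0.0841% of all genes in edgeR (0.0453% higher), with 20 of the 75 at an unadjusted p under 0.05. Rpsa had the smallest p: the KO libraries held 23 and 22.8 CPM, below the 29.9 and 28.3 CPM of Het (-0.35 ± 0.067, adjusted p = 0.216). Rps21 (-0.32 ± 0.069, adjusted p = 0.230) and Rps15 (-0.24 ± 0.054, adjusted p = 0.230) followed. In Het against WT, Rps21 was at 0.32 ± 0.069 (edgeR adjusted p = 0.234). The 2 comparisons share the Het libraries, and all 3 use the same 6 libraries.

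The whole and dorsal tables came from separate experiments and were normalized apart, so levels are given side by side with no test. Rpl5 ran from 32.1 to 38.0 CPM in whole hippocampus and from 29.7 to 44.8 CPM in dorsal libraries. Rpl13a ran from 172 to 193 CPM in whole hippocampus and from 232 to 677 CPM in dorsal libraries.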

How the data were processed

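RNA-seq counts per gene came as 2 tables deposited by the authors, whole hippocampus (6 libraries) and dorsal hippocampus (17 libraries). HTSeq 0.9.1, STAR, limma, SAMtools 1.1, DESeq2 and the build mm10 are named in the submitters' processing notes; which step made the counts, the annotation and the handling of reads with more than 1 match are not given in the sources used here. Per the labels' protocols, libraries were made from 300 ng RNA with a poly(A) module and a kit that does not mark strand. In the dorsal file, 26 symbols had been turned into dates.

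Counts were tested as deposited with edgeR 4.0.16 (R 4.3.3, limma 3.58.1): TMM factors, filterByExpr (minimum count 10, minimum total 15), the quasi-likelihood F test, and Benjamini-Hochberg adjustment over all 15453 (whole) or 14808 (dorsal) genes, called under 0.05. The whole fit had 1 term per group and the dorsal fit added batch, leaving 3 and 11 residual degrees of freedom. Standard errors are the log2 fold change over the square root of F, an approximation. In all, 8 comparisons were made. Alternatives were DESeq2 1.42.0, other size factors, no filter, each library left out, the replicate number as a block, no batch term, single batches and, chosen after seeing the data, a correction for transcript length (lowess span 0.3) and a crossed block. Scripts were tested on simulated data. Symbols were matched to GENCODE M21 (98.2% in the whole and 98.1% in the dorsal table).

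Members and lists were chosen with earlier results of these data known. Genes named with values were, per comparison, the 6 called genes with the largest change in each direction or else the 3 with the smallest p, the 3 highest and 3 lowest levels per length, genes of set roles, and those nearest the count minimum; in the other lists, the 2 with the smallest p. Some genes that the rule names are not reported here. Rpl28, Rpl35, Rps3, Rps7 after fear, Rpl29 and Rpl8 after fear and the exon overlap examples were named after their values were seen. The labels do not say whether replicate numbers pair libraries, and they were taken not to. Correlations of same-numbered libraries ran from -0.715 to 0.357, but they cannot settle this. Batch was not removed from them, and many dorsal pairs lie in different batches. In groups of 2 both numbers give the same value. Pairs of libraries within a group differed by more than sampling noise.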

Additional observations from a re-analysis of the deposited data

Results flagged for a closer look

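Of 120 groups of 4 or 5 libraries tested for a library far from the rest, 2 stood out, and chance alone flags about 1 in 20 groups. Rps27a, a ubiquitin fusion gene, was at 6.53 CPM in WT home cage 2, where the nearest of the other WT home cage libraries held 4.41 CPM. Rpsa was at 39.5 CPM in KO fear 4, below the nearest KO fear library at 57.9 CPM.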

How the results depend on the processing

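Only 3 WT fear libraries, all shallow and in 1 batch, stand behind every result after fear in WT, and whole hippocampus had 2 libraries a group. Of the alternatives, 159 counts and 164 medians were classed as the same and 14 counts and 9 medians as moved. Most of the counts classed as the same were 0 in the main fit. For 28 named genes called in KO against WT after fear, 550 alternatives were the same, 177 weaker and 1 reversed. Rps6 passed in 9 of 26 alternatives and Rpl36a in 11, and none of the 28 passed in more than 21.

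For KO against WT after fear, the count of 54 became 0 with the replicate block and 0 with the length correction and replicate block; all genes called fell to 1 and 3. The numbers were not taken to pair the libraries, and under the block 52 genes had an unadjusted p under 0.05. The count ran from 0 to 62 with 1 library left out. The median of 0.82 became 0.68 with the block, 0.40 with the length correction and 0.35 with both. Rpl36a, at 0.73, turned to -0.0037 with both. Without a batch term 36 genes were called, and 1544 of all genes in place of 3298.

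With DESeq2, 2 genes were called in Het against WT and 1 in WT fear against home cage, where no batch term also gave 1 (712 of all genes). With 1 library left out, called genes ran from 0 to 1 in Het against WT and in WT fear against home cage, from 0 to 2 in the interaction (2 without KO home cage 1 or WT fear 1) and from 0 to 20 in KO against WT in the home cage. In these fits the calls over all genes rose as well, to 1424 in Het against WT without Het 1, to 1007 and 894 in the interaction without WT fear 1 and without KO home cage 1, and to 793 and 655 in WT fear against home cage without the same libraries. The medians then ran from 0.0661 to 0.122 in Het against WT and from -0.160 to -0.0865 in KO against Het. With the length correction, alone and with the block, the median was -0.06 in KO against Het (-0.0592 and -0.0599) and 0.01 in KO against WT whole hippocampus (0.0123 for both). The block gave 0 called genes of the family in every other comparison. In KO against WT in the home cage it left 0 genes at an unadjusted p under 0.05, from 32, and a median of 0.19 in place of 0.37, and in KO fear against home cage the median became 0.26 in place of 0.11. The length correction with the block gave -0.14 in WT fear against home cage and 0.26 in the interaction. With the numbers of KO crossed, 0 genes of the family were called in KO against WT and KO against Het, and 8 and 24 of all genes. The cause of these shifts was not tested.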
